A study of Homo sapiens with 9 samples.

Results

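The ATP-binding cassette (ABC) family was described in RNA-seq libraries of A2780, an established human ovarian carcinoma line. Members were the rows of the gene count table whose Ensembl identifier maps to a protein-coding gene with an ABC symbol of subfamilies A to G. This gave 46 members of 24542 genes and loci: 45 family genes and ABCF2-H2BK1, a readthrough model that shares exons with ABCF2. The wild-type cells were harvested at 96 h after Pt-ttpy at 5.5 µM, cisplatin at 0.6 µM or 0.5% DMSO, with 3 libraries labelled as biological replicates in each group. Cisplatin crosslinks DNA, and the study describes Pt-ttpy as a platinum complex that binds G-quadruplexes, folded structures of guanine-rich nucleic acid. Both drugs were used at their IC80 according to the labels, so the 2 were given at different doses. Whether the treated cells also received DMSO is not stated there. The labels do not say whether replicates were separate cultures, so the p-values measure the spread between these libraries, which may be technical.

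ABC proteins bind and hydrolyse ATP in a conserved pair of nucleotide-binding domains. Most use that energy to move lipids, drugs, conjugates, peptides or metal-containing compounds across a membrane. P-glycoprotein (ABCB1), MRP1 (ABCC1) and BCRP (ABCG2) are the classic multidrug pumps of tumour cells. ABCA1 and ABCG1 pass cholesterol to lipoprotein particles and are transcribed under the liver X receptors, LXR. Subfamilies E and F have no membrane part and act at the ribosome.

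ABCB1, ABCF2 and ABCA1 were picked from the members called changed, as the fallen drug pump, a fallen ribosome factor and the risen cholesterol exporter. Other called members were not picked, such as ABCC6, which rose, and ABCF1, which fell. The 250 bases of RefSeq sequence (GRCh38.p14) before the starts of the picked genes are shown. Each is written 5′ to 3′ on the minus strand of the chromosome, which is the coding strand of the gene. Capitals mark CCAAT or its reverse complement in ABCB1 and ABCF2. In ABCA1 they mark the E-box CACGTG, the GC box GGGCGG and the TATA box TATAAA. The marked letters differ between the genes, and GGGCGG on the other strand of the ABCF2 window was left in lower case. For ABCB1, whose windows differ between starts, the window that holds CCAAT was chosen.
ABCB1 (chr7:87600885-87601134): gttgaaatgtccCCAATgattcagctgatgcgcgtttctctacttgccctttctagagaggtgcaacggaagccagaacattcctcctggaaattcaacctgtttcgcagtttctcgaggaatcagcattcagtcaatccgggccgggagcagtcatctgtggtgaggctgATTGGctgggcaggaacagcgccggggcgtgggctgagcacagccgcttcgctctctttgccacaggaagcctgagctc
ABCF2 (chr7:151227206-151227455): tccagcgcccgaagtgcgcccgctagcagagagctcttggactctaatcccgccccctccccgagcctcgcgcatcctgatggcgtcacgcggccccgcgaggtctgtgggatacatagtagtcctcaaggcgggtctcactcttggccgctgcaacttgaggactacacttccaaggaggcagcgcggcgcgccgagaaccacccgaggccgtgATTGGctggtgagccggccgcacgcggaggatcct
ABCA1 (chr9:104928156-104928405): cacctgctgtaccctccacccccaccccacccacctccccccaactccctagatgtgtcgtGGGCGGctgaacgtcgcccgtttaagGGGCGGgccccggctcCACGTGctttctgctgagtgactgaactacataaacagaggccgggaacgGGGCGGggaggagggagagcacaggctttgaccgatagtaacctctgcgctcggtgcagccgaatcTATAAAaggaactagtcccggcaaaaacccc

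In the ABCB1 window the CCAAT letters begin at position -238 from the start and their reverse complement at -79. In the ABCF2 window the reverse complement begins at -35. The ABCA1 window holds GGGCGG at -189, -163 and -97, CACGTG at -147 and TATAAA at -31. These letters are common: CCAAT lies on either strand in a window of 37% of 27305 genes and of 12 of the 36 members with a window (33.3%). GGGCGG lies in 46.2% of genes and 22 members (61.1%), TATAAA in 13% of genes and 6 members (16.7%), and CACGTG in 7.73% of genes and 8 members (22.2%). Among called members with a window, CCAAT lies in ABCA7, which rose, and in ABCB1, ABCB6, ABCB9 and ABCF2, which fell. CCAAT is absent from ABCA1, ABCA5, ABCC6 and ABCG4, which rose, and from ABCF1 and ABCF3, which fell. GGGCGG lies in all of these called members but ABCB1 and ABCC6. Runs that could fold as a G-quadruplex, written as 4 runs of GGG with 1 to 7 bases between, lie in 26.2% of genes and 10 members (27.8%), and can overlap GGGCGG. Of the called members with a window, ABCA1, ABCC6 and ABCG4, which rose, and ABCB6, ABCB9 and ABCF3, which fell, are among those 10. ABCA5 and ABCA7, which rose, and ABCB1, ABCF1 and ABCF2, which fell, are not. The exact direct repeat of AGGTCA with 4 bases between, the consensus that LXR binds, lies in 0.0183% of genes and in no member window. Only exact letters were sought, so near matches were not counted. The ABCA1 window holds such a near match in lower case, tgaccgatagtaacct, close to the reverse complement of that repeat. A gene counts here where any of its windows holds the letters, and a match or its lack says nothing about binding. The 36 members have 54 windows and the 27305 genes have 35116, so these shares are not strictly like for like. ABCF2 and ABCF2-H2BK1 have the same window and are counted as separate members.

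Library totals lay between 31.3 and 40.8 M counts. DMSO 2 and cisplatin 2, named by replicate number, stood apart from the other 7 libraries on a component with 15.9% of the variance. In these 2, the deviation of a gene from its mean over all libraries rose with transcript GC content (Spearman rho 0.424 in cisplatin 2 and 0.53 in DMSO 2, across 13383 genes), against -0.353 to -0.173 in the others. Where a call printed below for a single gene changes without them, both values are given. Markers of the labelled ovarian carcinoma lineage were near 0, with 6 markers summing to 1.04 CPM (counts scaled to library size) or less in every library and SOX17 at 0 in all 9. Epithelial markers summed to 12.5 CPM or less. Fibroblast markers (COL3A1, DCN, LUM, PDGFRA, COL1A1, COL1A2) were all above 1 CPM and summed to 1682 to 1762 CPM with Pt-ttpy, 1603 to 1846 with cisplatin and 937 to 1061 with DMSO. Their sum was thus higher with both drugs, and their part in the results below was not tested. The sum was carried by COL3A1, DCN, LUM and PDGFRA. COL1A1 overlapped DMSO with both drugs, at 8.15 to 11.1 CPM with Pt-ttpy, 7.92 to 14.3 with cisplatin and 9.88 to 12.3 with DMSO. COL1A2 had at most 4 CPM in any library. In bulk RNA, fewer cells of a kind and less RNA per cell cannot be told apart.

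The filter on low counts left 32 of the 46 members for testing. It removed the 14 others, ABCA13, ABCA4, ABCA6, ABCA8, ABCA9, ABCB11, ABCB4, ABCB5, ABCC12, ABCC3, ABCC9, ABCG5, ABCG8 and ABCF2-H2BK1. Among them ABCA4, ABCA6, ABCB5, ABCC12, ABCC9 and ABCG5 had 0 counts in every library. The rest reached at most 19 counts in a library, for ABCF2-H2BK1 in DMSO 3. Several of these are proteins of specialised tissues, such as ABCA4 of the retina, ABCB11 and ABCB4 of the bile canaliculus and ABCG5 with ABCG8 of the sterol-secreting liver and gut. ABCC3, a bile salt and conjugate exporter, had 0, 0 and 0 counts with Pt-ttpy, 0, 6 and 3 with cisplatin and 0, 0 and 0 with DMSO.

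In DMSO cells, levels per kb of exon were highest for the ribosome factors ABCF2 and ABCE1. Lengths are those of all annotated exons of a gene merged, so they can exceed that of any 1 transcript. ABCF2 stood at 45.8 ± 5.93 CPM per kb (SD, n = 3, as for every mean here), ABCE1 at 37.8 ± 8.08, ABCB10 at 26.1 ± 3.75 and ABCF1 at 24.9 ± 2.27. The next were the lamellar body lipid transporter ABCA3 at 17.6 ± 3.78, the conjugate pump ABCC1 at 15.7 ± 1.35, and ABCA2 and ABCA7 at 15.6 ± 2.53 and 15.3 ± 2.2. ABCC1 was thus the highest of the drug pumps per length. The ribosome factor ABCF3 came after ABCA7, at 12.7 ± 1.69. ABCB1 stood at 1.09 ± 0.102 CPM per kb and ABCG2 at 0.214 ± 0.0781. Among the tested members ABCC2, ABCC11, ABCA10 and ABCA12 lay lowest, at 0.0377 CPM per kb or less. Of the 31 pairs of neighbours in this order, 22 had overlapping replicate values, so most neighbours do not differ beyond their spread. All 46 members together held 1753 ± 23.7 CPM with Pt-ttpy, 1721 ± 14.7 with cisplatin and 1796 ± 71.8 with DMSO.

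**Figure D1:**
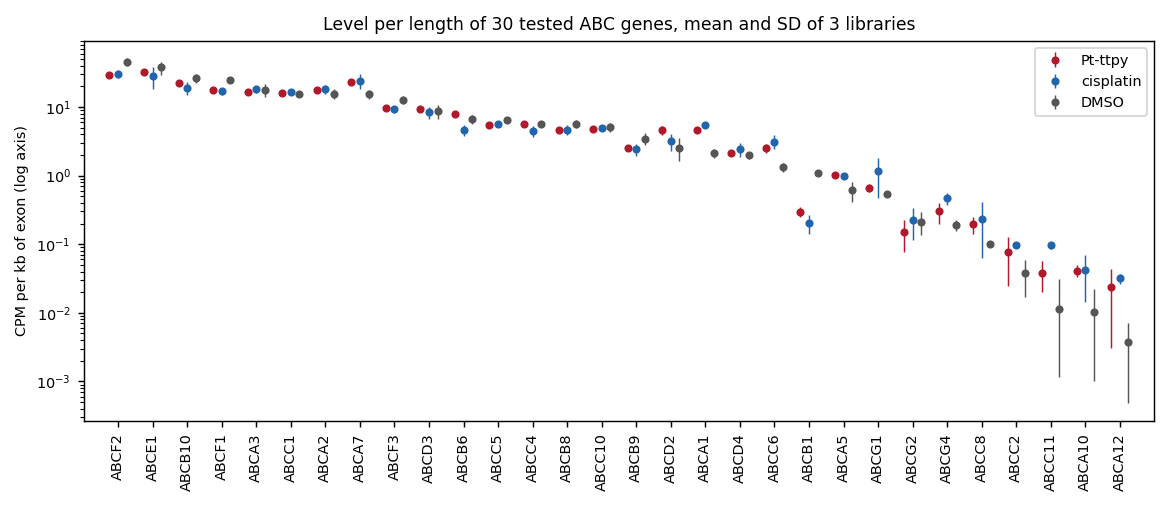
Level of 30 of the 32 tested members in CPM per kb of exon on a log axis, in the order of the DMSO mean, as the mean of 3 libraries with its SD (the lower bar is cut short where the SD nears or exceeds the mean) for Pt-ttpy (red), cisplatin (blue) and DMSO (grey). ABCB1 is lower with both drugs than with DMSO, and ABCA1 and ABCC6 are higher.

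Against DMSO, Pt-ttpy changed 7 of the 32 tested members (21.9%), while 12.0% of all 15558 tested genes were called. ABCA1, ABCA5, ABCA7 and ABCC6 rose, and ABCB1, ABCF1 and ABCF2 fell. The background was 5.59% for rises and 6.45% for falls. Cisplatin changed 12 of the 32 (37.5%), against a background of 20.5%, with 10.7% for rises and 9.78% for falls. The same 7 genes moved the same way with cisplatin, and ABCG1 and ABCG4 rose and ABCB6, ABCB9 and ABCF3 fell as well. The comparisons share the DMSO libraries, so this overlap is no independent evidence. A call is a Benjamini-Hochberg adjusted p under 0.05 over all tested genes in edgeR's quasi-likelihood F test, as is every adjusted p given for a single gene. DESeq2's Wald test, where it is named below, called more genes. With Pt-ttpy it called 1344 higher and 1509 lower of 14950 genes, and with cisplatin 2119 and 1824 of 15554. Between the drugs it called 45 and 208 of 15554. These are the backgrounds of the DESeq2 counts given below. The median log2 change of the tested members was 0.10 with Pt-ttpy and 0.071 with cisplatin, against 0.031 and 0.013 over all genes. Values of Pt-ttpy and DMSO did not overlap for 14 members, against a background of 40.9%, and those of cisplatin and DMSO for 17, against 38.0%. With DMSO 2 and cisplatin 2 left out, 15 members were called with Pt-ttpy (background 33.2%) and 15 with cisplatin (30.2%). The Pt-ttpy count was 2 without Pt-ttpy 1 (background 1.68%), 2 without Pt-ttpy 2 (1.16%) and 4 without Pt-ttpy 3 (1.87%), so calls over all genes dropped as well. The cisplatin count was 7 without DMSO 3 (background 12.8%) and 7 without Pt-ttpy 2 (14.6%).

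**Figure D2:**
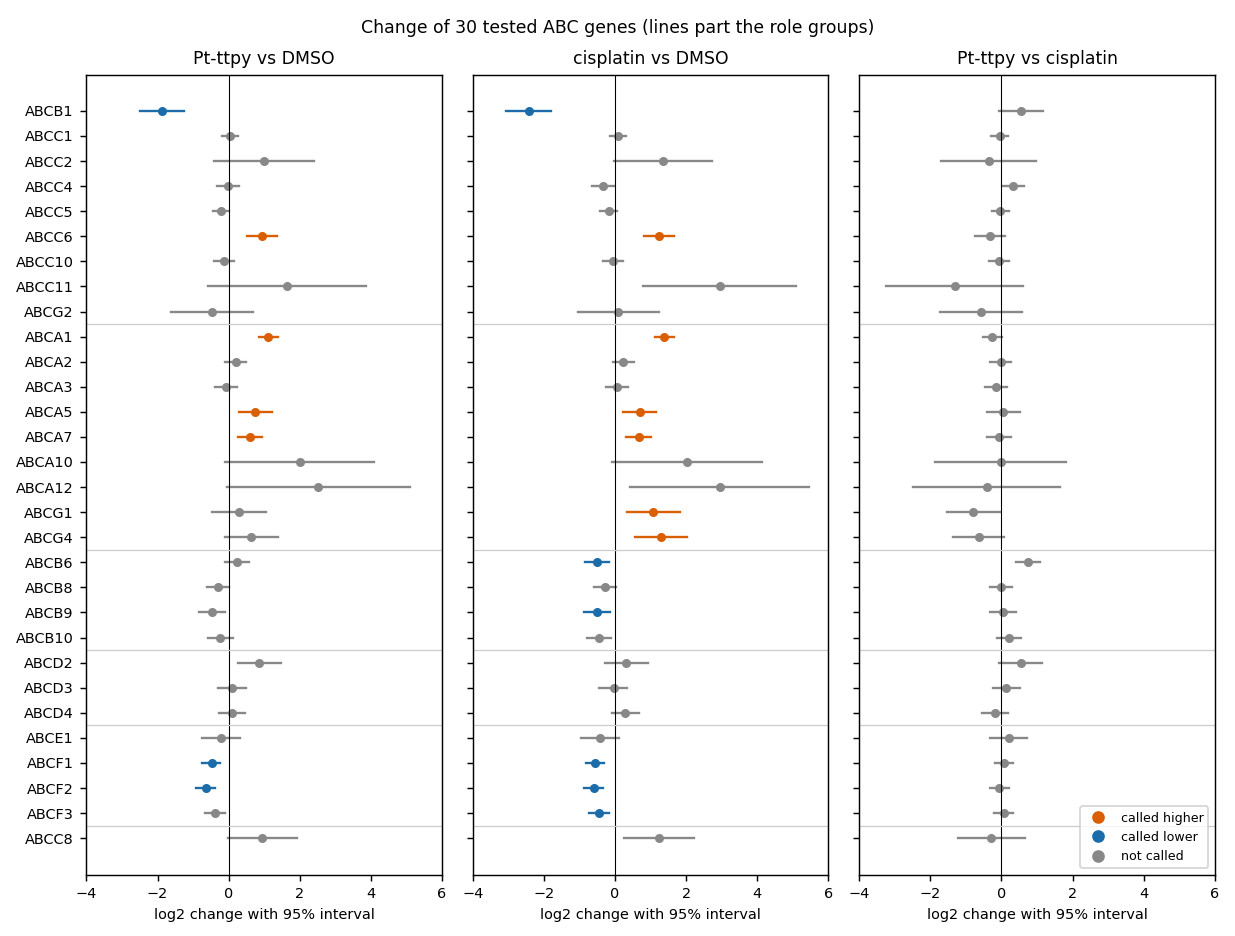
Fitted log2 change (points) with its 95% interval (lines) for 30 of the 32 tested members in each of the 3 comparisons, with role groups parted by grey lines and called changes in orange (higher) or blue (lower). Pt-ttpy against DMSO has 4 orange and 3 blue points, cisplatin against DMSO 6 and 6, and Pt-ttpy against cisplatin none.

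Among the exporters of drugs, bile compounds and conjugates, 9 of 14 members were tested, and each drug changed 2 of them, ABCB1 down and ABCC6 up. This share was 22.2% for each drug, against a background of 12.0% for Pt-ttpy and 20.5% for cisplatin. ABCB1 (ENSG00000085563, chr7:87503633-87713323) encodes the P-glycoprotein pump for bulky lipophilic drugs. It had 2.06, 1.47 and 1.66 CPM with Pt-ttpy, 1.51, 0.782 and 1.24 CPM with cisplatin and 6.64, 6.7 and 5.64 CPM with DMSO. Every DMSO library lay above every treated one, at 226 to 236 counts in DMSO, against 52 to 67 with Pt-ttpy and 33 to 47 with cisplatin. ABCB1 fell by 1.87 on the log2 scale with Pt-ttpy (SE 0.28, adjusted p = 0.00467) and by 2.43 with cisplatin (SE 0.29, adjusted p = 0.000418). Both calls stood in each of the 9 fits that left out 1 library, with adjusted p of at most 0.0373 for Pt-ttpy and 0.00277 for cisplatin. ABCB4, its neighbour on the chromosome and a phospholipid exporter, had 2 counts in 1 DMSO library and 0 elsewhere.

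ABCC6 (ENSG00000091262, chr16:16148928-16223522) mediates release of ATP from cells, and its loss causes the calcifying disorder pseudoxanthoma elasticum. It had 20.4, 21.2 and 15.6 CPM with Pt-ttpy, 22.6, 29.7 and 18.8 CPM with cisplatin and 8.64, 11.7 and 9.66 CPM with DMSO. Both treated groups lay above DMSO without overlap. The log2 change was 0.93 with Pt-ttpy (SE 0.20, adjusted p = 0.0155) and 1.25 with cisplatin (SE 0.20, adjusted p = 0.0024). Leaving out Pt-ttpy 1 (adjusted p = 0.0719) or Pt-ttpy 2 (0.0768) ended the Pt-ttpy call, and the cisplatin call was kept in all 9 fits. Of the 50-base words in ABCC6 transcripts, 18.2% also occur in other genes, chiefly its pseudogene ABCC6P1, so its counts are uncertain to that extent.

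The other 7 tested exporters were not called with either drug by edgeR over all 9 libraries. ABCC1, the pump for glutathione conjugates, had 118, 125 and 121 CPM with Pt-ttpy, 124, 138 and 113 with cisplatin and 111, 130.4 and 115 with DMSO. The 3 groups overlapped, and the 95% interval of its log2 change was -0.20 to 0.26 with Pt-ttpy and -0.15 to 0.31 with cisplatin. ABCC5, an exporter of cyclic nucleotides, had 67.7, 60.1 and 61.3 CPM with Pt-ttpy, 67.7, 65.1 and 60.5 with cisplatin and 67, 78.5 and 74 with DMSO. Its log2 change was -0.21 (-0.44 to 0.014) with Pt-ttpy and -0.18 (-0.41 to 0.046) with cisplatin. ABCC4, an exporter of cyclic nucleotides and prostaglandins, had 47.3, 50.1 and 47.7 CPM with Pt-ttpy, 44.2, 30.6 and 41.5 with cisplatin and 53.1, 44 and 50.3 with DMSO. The low ABCC4 value, 30.6, was that of cisplatin 2, and the change with cisplatin was -0.34 (adjusted p = 0.102), or -0.27 (adjusted p = 0.0144, called) without DMSO 2 and cisplatin 2.

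ABCG2, the breast cancer resistance protein, was sparse in all groups. It had 28, 39 and 12 counts with Pt-ttpy, 23, 38 and 61 with cisplatin and 46, 46 and 25 with DMSO. Its interval was wide, -1.63 to 0.68 on the log2 scale with Pt-ttpy and -1.04 to 1.23 with cisplatin, and a 2-fold fall of ABCG2 lies within both intervals. ABCC2, the MRP2 conjugate exporter often studied in cisplatin resistance, had 34, 17 and 9 counts with Pt-ttpy, 24, 30 and 27 with cisplatin and 15, 4 and 14 with DMSO. The cisplatin and DMSO values of ABCC2 did not overlap, but neither drug passed the test (adjusted p = 0.324 with Pt-ttpy and 0.153 with cisplatin). ABCC11 had 14, 8 and 6 counts with Pt-ttpy, 19, 30 and 26 with cisplatin and 0, 0 and 10 with DMSO, and its adjusted p with cisplatin was 0.0531. ABCC11 was called with cisplatin by DESeq2's Wald test (0.0194) and in edgeR with the replicate number as a block (0.0444). ABCC10 had log2 changes of -0.13 with Pt-ttpy and -0.059 with cisplatin, neither called.

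The lipid and sterol exporters of subfamilies A and G moved upward where they were called. Of 16 members 9 were tested, and 3 rose with Pt-ttpy (33.3%) and 5 with cisplatin (55.6%), with 0 falls for either drug. Over all genes 5.59% rose and 6.45% fell with Pt-ttpy, and 10.7% rose and 9.78% fell with cisplatin, so 0 falls among 9 is near the background. Of those 9, 8 had a positive log2 change with Pt-ttpy and 9 with cisplatin. The 0 falls are 0 also at an unadjusted p under 0.05 and by DESeq2's Wald test, where the same 3 and 5 genes were called.

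ABCA1 (ENSG00000165029, chr9:104781002-104928237) loads cellular cholesterol and phospholipid onto apolipoprotein A-I, the first step in forming HDL. It had 54.4, 51.7 and 50.8 CPM with Pt-ttpy, 67.4, 63.8 and 56.4 CPM with cisplatin and 25.3, 20.2 and 26.4 CPM with DMSO. The groups did not overlap, and no treated library fell below 50.8 CPM. The log2 change was 1.12 with Pt-ttpy (SE 0.13, adjusted p = 0.00128) and 1.38 with cisplatin (SE 0.13, adjusted p = 6.84e-05). ABCA1 kept both calls in all 9 fits that left out 1 library, with an adjusted p of at most 0.0113.

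ABCA5 (ENSG00000154265, chr17:69244311-69327244), a lysosomal and late endosomal transporter, had 14.1, 13.4 and 13.1 CPM with Pt-ttpy, 13.7, 12.2 and 13.1 with cisplatin and 9.59, 5.07 and 9.48 with DMSO. DMSO 2 was the low library, and neither drug overlapped DMSO. Its log2 change was 0.75 with Pt-ttpy (SE 0.22, adjusted p = 0.0432) and 0.69 with cisplatin (SE 0.22, adjusted p = 0.0412). The Pt-ttpy call was lost without DMSO 3, cisplatin 1, cisplatin 3 or any 1 of the Pt-ttpy libraries (adjusted p 0.0541 to 0.132). The cisplatin call was lost without DMSO 3 or without any 1 of the treated libraries (0.0501 to 0.0912). In the 7 libraries without DMSO 2 and cisplatin 2, the log2 change of ABCA5 was 0.51 with Pt-ttpy (adjusted p = 0.0058) and 0.50 with cisplatin (0.0128).

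ABCA7 (ENSG00000064687, chr19:1040101-1065572), a phospholipid transporter known from the genetics of Alzheimer's disease, had 202, 186 and 194 CPM with Pt-ttpy, 175, 263 and 172 with cisplatin and 121, 149 and 114 with DMSO. Its highest value among the treated libraries, 263, was that of cisplatin 2. The log2 change was 0.60 with Pt-ttpy (SE 0.16, adjusted p = 0.0327) and 0.67 with cisplatin (SE 0.16, adjusted p = 0.0146). The Pt-ttpy call was lost without DMSO 1, DMSO 3 or any 1 Pt-ttpy library (0.0771 to 0.114), and the cisplatin call was lost without DMSO 3 (0.0564). In those 7 libraries ABCA7 changed by 0.73 with Pt-ttpy (adjusted p = 2.83e-08) and 0.57 with cisplatin (8.88e-07).

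ABCG1 and ABCG4, dimer-forming transporters that export sterols to HDL, were called higher with cisplatin and were not called with Pt-ttpy. ABCG1 (ENSG00000160179, chr21:42199689-42297244) had 3.51, 4.03 and 4.65 CPM with Pt-ttpy, 5.51, 11.7 and 3.85 with cisplatin and 3.15, 3.72 and 3.12 with DMSO. Its cisplatin change of 1.08 (SE 0.34, adjusted p = 0.0451) rested on cisplatin 2. Without cisplatin 2 the adjusted p was 0.191, and without DMSO 2 and cisplatin 2 together the change was 0.58 (adjusted p = 0.113). The call was also lost without any 1 DMSO library (0.0735 to 0.119) and without any 1 Pt-ttpy library (0.0641 to 0.0677). ABCG4 (ENSG00000172350, chr11:119149012-119162653) had 2.4, 1.16 and 2.1 CPM with Pt-ttpy, 2.83, 3.6 and 2.37 with cisplatin and 1.04, 1.46 and 1.12 with DMSO. All cisplatin values of ABCG4 lay above all DMSO values, whereas Pt-ttpy 2 lay among the DMSO values. The change was 0.64 with Pt-ttpy (adjusted p = 0.228) and 1.28 with cisplatin (SE 0.34, adjusted p = 0.0216). ABCG4 lost its cisplatin call without DMSO 1 (0.0623), DMSO 3 (0.0653) or cisplatin 2 (0.0644). The difference between the drugs did not pass the test for either gene: Pt-ttpy minus cisplatin was -0.79 for ABCG1 (adjusted p = 0.575) and -0.64 for ABCG4 (adjusted p = 0.673).

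Of the lipid exporters not called, ABCA3 had 129.9, 133 and 126 CPM with Pt-ttpy, 137, 161 and 129 with cisplatin and 116, 171 and 124 with DMSO. Its high values were those of the 2 libraries that stood apart, and its log2 change was -0.081 with Pt-ttpy and 0.056 with cisplatin. ABCA2, which acts in lysosomal sphingolipid handling, changed by 0.20 with Pt-ttpy (adjusted p = 0.344) and 0.23 with cisplatin (0.251). ABCA2 was called higher with both drugs in the 7 libraries without DMSO 2 and cisplatin 2, at 0.34 (adjusted p = 7.49e-05) and 0.24 (0.00423). ABCA12, the lipid transporter of the skin barrier, had 0, 12 and 11 counts with Pt-ttpy, 8, 12 and 12 with cisplatin and 0, 2 and 2 with DMSO. ABCA10 had 12, 14 and 9 counts with Pt-ttpy, 18, 15 and 4 with cisplatin and 2, 7 and 0 with DMSO. Neither gene passed the test over all 9 libraries, and ABCA10 passed with Pt-ttpy in the 7 (adjusted p = 0.0441), on counts of 0 and 2 in DMSO.

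**Figure D3:**
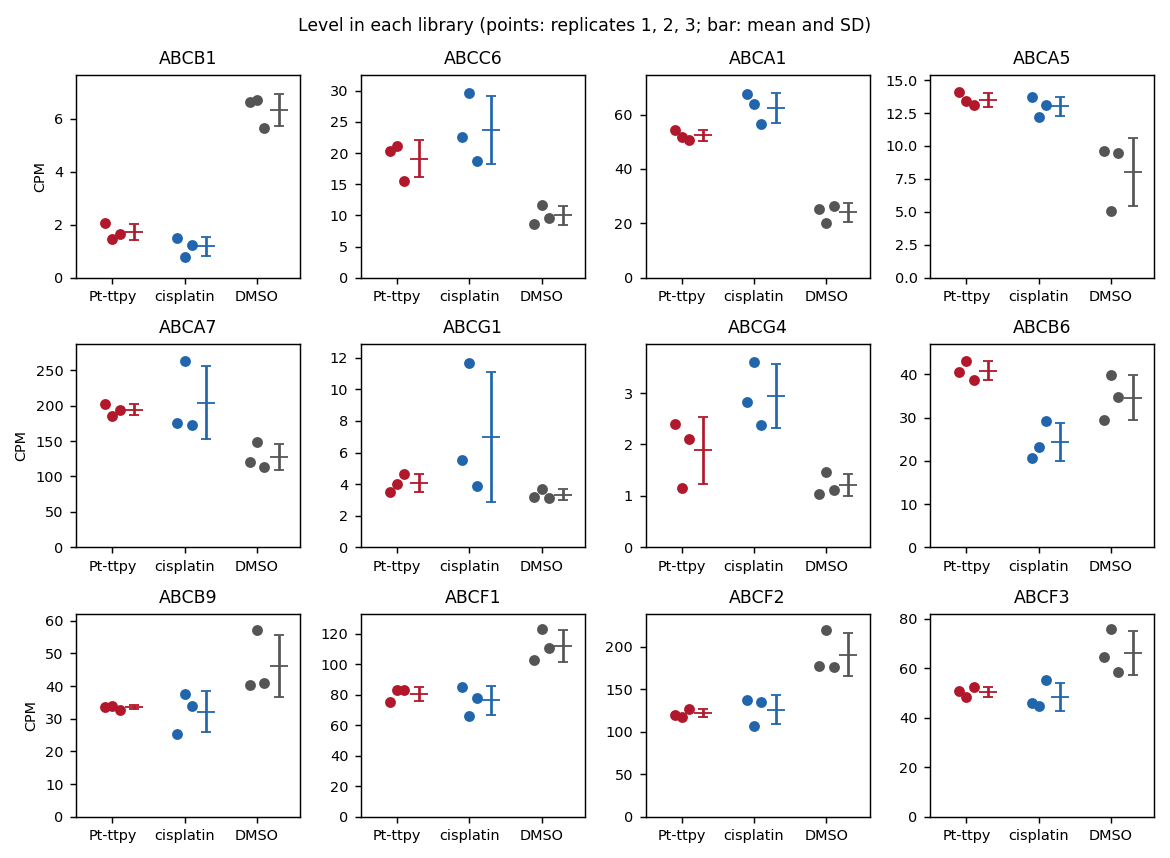
CPM in each library (points, replicates 1 to 3 from left to right within a group, axes from 0) with the mean and SD beside them, for the 12 members called in at least 1 comparison, in the groups Pt-ttpy (red), cisplatin (blue) and DMSO (grey). ABCB1 has its DMSO points between 5.64 and 6.7 CPM, above all treated points, and ABCG1 has 1 high cisplatin point at 11.7 CPM.

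The ribosome and translation ATPases moved the other way. All 4 genes of subfamilies E and F (ABCE1, ABCF1, ABCF2 and ABCF3) were tested. Pt-ttpy lowered 2 of them (50%) and cisplatin 3 (75%), where falls over all genes were 6.45% and 9.78%. All 4 had negative changes with both drugs, and the median log2 change over all genes was 0.031 with Pt-ttpy and 0.013 with cisplatin. With 4 genes these shares are coarse. ABCF2 (ENSG00000033050, chr7:151212490-151227230), whose yeast relative acts in ribosome export and assembly, had 119.6, 118 and 127 CPM with Pt-ttpy, 138, 107 and 135 with cisplatin and 178, 220.0 and 176 with DMSO. ABCF2 fell by 0.65 on the log2 scale with Pt-ttpy (SE 0.12, adjusted p = 0.0123) and by 0.60 with cisplatin (SE 0.12, adjusted p = 0.00845). No treated library of ABCF2 reached the lowest DMSO library. The Pt-ttpy call was lost without Pt-ttpy 1 (0.0621) or Pt-ttpy 2 (0.0686), and the cisplatin call was kept in all 9 fits. The cisplatin change of ABCF2 was smaller in the 7 libraries without DMSO 2 and cisplatin 2, at -0.37 (adjusted p = 8.44e-05).

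ABCF1 (ENSG00000204574, chr6:30571376-30597179), which binds the initiation factor eIF2, had 75.1, 82.9 and 83.3 CPM with Pt-ttpy, 85, 66.3 and 77.9 with cisplatin and 103, 123 and 111 with DMSO. It fell by 0.48 on the log2 scale with Pt-ttpy (SE 0.12, adjusted p = 0.0243) and by 0.56 with cisplatin (SE 0.12, adjusted p = 0.00892), without overlap between either drug and DMSO. ABCF1 lost its Pt-ttpy call without DMSO 2, DMSO 3 or any 1 Pt-ttpy library (0.0501 to 0.109) and kept its cisplatin call in all 9 fits. ABCF3 (ENSG00000161204, chr3:184186023-184194012), a relative of the yeast translation factor Gcn20, had 50.9, 48.3 and 52.3 CPM with Pt-ttpy, 46.1, 44.5 and 55 with cisplatin and 64.3, 75.7 and 58.3 with DMSO. Its change was -0.39 with Pt-ttpy (SE 0.13, adjusted p = 0.064, or 0.0331 in DESeq2) and -0.45 with cisplatin (SE 0.13, adjusted p = 0.0283). The cisplatin call of ABCF3 was lost without DMSO 2, cisplatin 1, cisplatin 2 or Pt-ttpy 2 (0.0501 to 0.0785), and under upper-quartile scaling or plain library totals. In the 7 libraries ABCF3 was called lower with both drugs, at -0.28 (adjusted p = 0.0113) and -0.27 (0.0235).

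ABCE1 (ENSG00000164163, chr4:145097932-145129179) splits ribosomes after termination. It had 207, 197 and 206 CPM with Pt-ttpy, 209.6, 103 and 218 with cisplatin and 276, 179.6 and 254 with DMSO. The low values, 103 and 179.6, were those of cisplatin 2 and DMSO 2. ABCE1 was not called over all 9 libraries (-0.22 with Pt-ttpy, adjusted p = 0.584, and -0.42 with cisplatin, adjusted p = 0.238). Without these 2 libraries it was called lower with both drugs, at -0.38 (adjusted p = 1.79e-05) and -0.30 (0.000451). Of its 50-base words, 15.6% occur in other genes, among them ANAPC10, which overlaps it on the opposite strand.

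The dimer-forming transporters of subfamily B that serve mitochondria and lysosomes showed 0 of 5 calls with Pt-ttpy, where 1 had an unadjusted p under 0.05 and DESeq2 called 0. Cisplatin lowered 2 of the 5 (40%), ABCB6 and ABCB9. The background was 12.0% for calls with Pt-ttpy and 9.78% for falls with cisplatin. ABCB6 (ENSG00000115657, chr2:219209766-219219017), a porphyrin transporter, had 40.6, 43.2 and 38.8 CPM with Pt-ttpy, 20.7, 23.3 and 29.3 with cisplatin and 29.4, 39.8 and 34.7 with DMSO. All cisplatin values lay below all values of the other groups, by as little as 29.3 against 29.4 CPM. The change was 0.24 with Pt-ttpy (adjusted p = 0.316) and -0.50 with cisplatin (SE 0.15, adjusted p = 0.0373). The cisplatin call was lost without cisplatin 1, cisplatin 2, DMSO 2, DMSO 3 or any 1 Pt-ttpy library (0.06 to 0.116). It was also lost under upper-quartile scaling (0.0688) or plain library totals (0.0773), and kept with DESeq2 size factors (0.042). With both DMSO 2 and cisplatin 2 left out, the change was -0.35 (adjusted p = 0.0887).

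The ABCB6 values also depend on gene models. The table holds ENSG00000284820, a protein-coding model on the same strand that covers 54.7% of the exon bases of ABCB6. It had 16.5, 11.6 and 13.5 CPM with Pt-ttpy, 27.3, 23.6 and 13.7 with cisplatin and 17.4, 10.6 and 11.7 with DMSO. The overlapping model was high where ABCB6 was low, in cisplatin 1 and cisplatin 2. Summed, the 2 models had 54.7 ± 2.41 CPM with Pt-ttpy, 45.9 ± 2.65 with cisplatin and 47.9 ± 2.26 with DMSO. In a fit of the summed counts, the cisplatin change of ABCB6 was -0.06 (adjusted p = 0.712) and was no longer called. ABCF2 shares 45.8% of its exon bases with ABCF2-H2BK1 in the same way, but that model held at most 19 counts, and its sum left both ABCF2 calls in place.

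**Figure D4:**
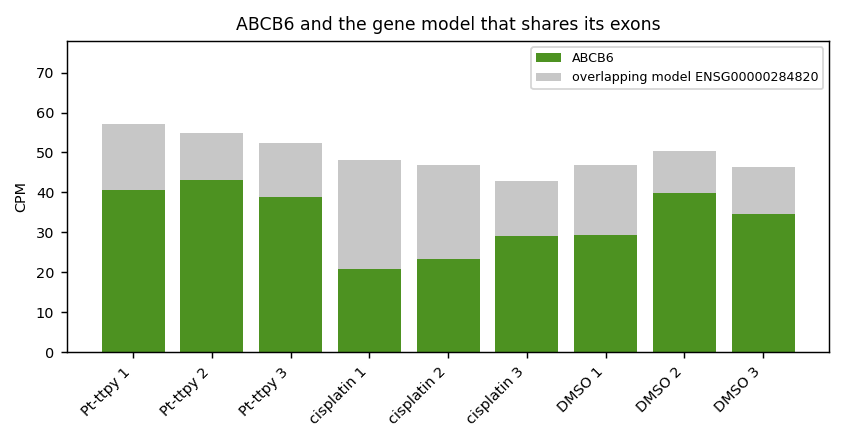
CPM of ABCB6 (green) and of ENSG00000284820, the model that shares its exons (grey, stacked on top), in each of the 9 libraries, with the axis from 0. The green bars are lowest with cisplatin, at 20.7 to 29.3 CPM, while the full bars of cisplatin, 42.9 to 48 CPM, overlap those of DMSO, 46.3 to 50.4 CPM.

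ABCB9 (ENSG00000150967, chr12:122920951-122981649), a lysosomal peptide transporter related to TAP, had 33.7, 34 and 32.8 CPM with Pt-ttpy, 25.2, 37.7 and 33.9 with cisplatin and 40.4, 57.1 and 40.9 with DMSO. It changed by -0.46 with Pt-ttpy (SE 0.17, adjusted p = 0.0913) and by -0.52 with cisplatin (SE 0.17, adjusted p = 0.0496). The cisplatin call was lost without DMSO 2, DMSO 3, cisplatin 1, cisplatin 3 or any 1 Pt-ttpy library (0.0608 to 0.149). It was also lost with DESeq2 size factors (0.0577), upper-quartile scaling (0.107), plain library totals (0.115) and a minimum count of 30 (0.0567). It was kept with no filter (0.0389), with the replicate block (0.0175) and in DESeq2's Wald test (0.0282). In the 7 libraries without DMSO 2 and cisplatin 2, ABCB9 was called lower with both drugs, at -0.28 (adjusted p = 0.041) and -0.45 (0.0046). ARL6IP4 and OGFOD2 overlap 12% and 12.5% of its exon bases on the opposite strand, and reads of such partners cannot be told apart if strand was not used.

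The mitochondrial members ABCB8 and ABCB10 were not called by edgeR over all 9 libraries. ABCB8, part of a mitochondrial potassium channel complex, had 44.8, 39.8 and 45.7 CPM with Pt-ttpy, 37.6, 52.1 and 40.8 with cisplatin and 47.6, 60.4 and 51 with DMSO. Pt-ttpy and DMSO values of ABCB8 did not overlap, but the change of -0.29 had an adjusted p of 0.201. The cisplatin change of ABCB8 was -0.28 (adjusted p = 0.178), or -0.33 (0.00899, called) without DMSO 2 and cisplatin 2. ABCB10, which acts in haem synthesis, had 96.8, 92.2 and 95.4 CPM with Pt-ttpy, 90.7, 61.3 and 92.2 with cisplatin and 117, 92.9 and 123 with DMSO. Its lowest value was again that of cisplatin 2, and its change was -0.23 with Pt-ttpy (adjusted p = 0.359) and -0.45 with cisplatin (0.0615). DESeq2 called the cisplatin change of ABCB10 (adjusted p = 0.0361), as did edgeR with the replicate block (0.0158). ABCB10 was also called lower with both drugs in those 7 libraries, at -0.34 (adjusted p = 0.000134) and -0.39 (0.000111).

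In subfamily D, whose dimer-forming transporters carry fatty acyl-CoA into peroxisomes or cobalamin out of lysosomes, 0 of 4 members were called with either drug by edgeR. With Pt-ttpy, 1 had an unadjusted p under 0.05 and DESeq2 called 1, ABCD2, which was named after its value was seen. With cisplatin both counts were 0. Over all genes, edgeR called 12.0% with Pt-ttpy and 20.5% with cisplatin. DESeq2 called 1344 higher and 1509 lower of 14950 genes with Pt-ttpy, and 2119 and 1824 of 15554 with cisplatin. ABCD2 had 23.7, 31 and 31.9 CPM with Pt-ttpy, 18, 15.4 and 26.2 with cisplatin and 20.4, 9.22 and 18.1 with DMSO, and its Pt-ttpy change of 0.86 (SE 0.27) had an adjusted p of 0.0614 in edgeR. It was 0.59 (adjusted p = 0.0388) without DMSO 2 and cisplatin 2. ABCD3, a peroxisomal transporter of branched-chain acyl-CoA, had 65.5, 66.9 and 78 CPM with Pt-ttpy, 70.2, 49 and 71.8 with cisplatin and 75.2, 48.9 and 72.3 with DMSO. The groups of ABCD3 overlapped, and the 95% interval of its log2 change was -0.29 to 0.49 with Pt-ttpy and -0.44 to 0.35 with cisplatin. ABCD4, the lysosomal cobalamin exporter, changed by 0.10 with Pt-ttpy and 0.29 with cisplatin, neither called. LMBRD1, its partner in cobalamin export, had 11.1, 12.3 and 10.7 CPM with Pt-ttpy, 9.5, 13.4 and 9.04 with cisplatin and 7.65, 6.21 and 6.69 with DMSO, and was called higher with both drugs (0.73, adjusted p = 0.0288, and 0.64, adjusted p = 0.0325). LMBRD1 lost the Pt-ttpy call without DMSO 2, DMSO 3 or any 1 Pt-ttpy library (0.0695 to 0.117) and the cisplatin call without DMSO 2, DMSO 3, cisplatin 2 or any 1 Pt-ttpy library (0.0524 to 0.0919). In the 7 libraries its cisplatin change was 0.38 (adjusted p = 0.104).

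ABCC8, the sulfonylurea receptor that regulates a potassium channel, was the 1 tested channel regulator of 2. It had 3.17, 2.31 and 1.84 CPM with Pt-ttpy, 2, 5.42 and 1.45 with cisplatin and 1.32, 1.29 and 1.17 with DMSO. Every treated library lay above every DMSO library, but the changes of 0.95 with Pt-ttpy (adjusted p = 0.178) and 1.24 with cisplatin (adjusted p = 0.0683) did not pass the test in edgeR, and cisplatin 2 held the highest value. DESeq2 called ABCC8 with cisplatin (adjusted p = 0.0333). With DMSO 2 and cisplatin 2 left out the edgeR changes were 0.97 (adjusted p = 0.0458) and 0.47 (0.4). Its channel partner KCNJ11 had 13.2, 11 and 11 CPM with Pt-ttpy, 13.2, 19 and 10.7 with cisplatin and 7.32, 9.16 and 6.86 with DMSO. KCNJ11 changed by 0.59 with Pt-ttpy (adjusted p = 0.0905) and 0.88 with cisplatin (adjusted p = 0.0158), a call lost without DMSO 3 (0.0589). It was called with Pt-ttpy, at 0.73 (adjusted p = 0.00163), without DMSO 2 and cisplatin 2.

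Pt-ttpy against cisplatin gave 0 calls among the 32 members in edgeR, with 3 at an unadjusted p under 0.05 and 1 call by DESeq2, ABCB6. Values of the drugs did not overlap for 5 members (background 20.6%). The background of calls was 0.514% in edgeR, so few calls were made on any genes in this comparison. DESeq2 called 45 genes higher and 208 lower of 15554. The doses differ (5.5 and 0.6 µM), so this sets the drugs side by side at the labelled IC80 of each and not at a matched dose. ABCB6 was 0.74 higher with Pt-ttpy than with cisplatin on the log2 scale (0.41 to 1.08, adjusted p = 0.0616), and with the overlapping model summed the difference was 0.25 (adjusted p = 0.53). When DMSO 2 and cisplatin 2 were left out it was 0.71 (adjusted p = 0.00978), the 1 member called there against a background of 5.20%. For ABCB1 the difference was 0.56 (-0.067 to 1.18, adjusted p = 0.673), and for ABCA1 it was -0.26 (-0.53 to 0.013, adjusted p = 0.643). These intervals leave room for a difference in either direction and do not show that the drugs act alike. ABCC4 and ABCG1 were the other members with an unadjusted p under 0.05, at 0.32 (0.014 to 0.63) and -0.79 (-1.54 to -0.046).

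**Figure D5:**
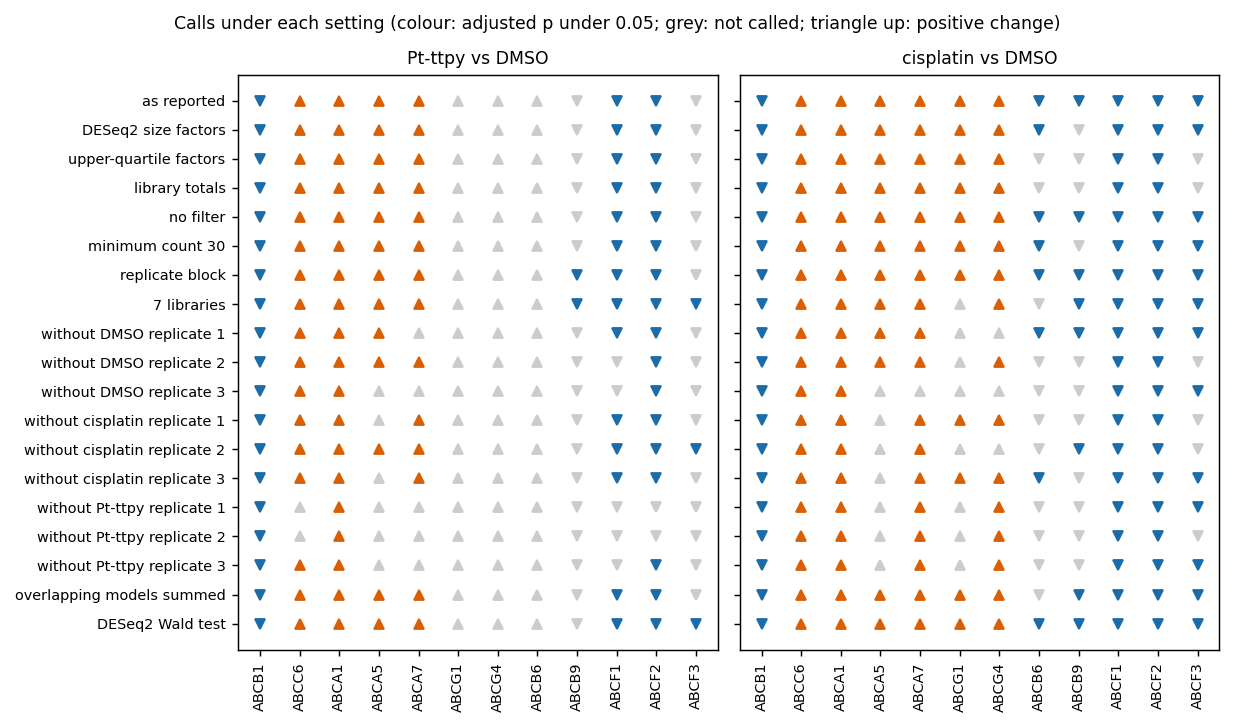
Direction (triangle up for a positive and down for a negative log2 change) and call (coloured where the adjusted p was under 0.05, grey otherwise) of the 12 called members under each processing setting, for Pt-ttpy (left) and cisplatin (right) against DMSO. The ABCB1 and ABCA1 columns are coloured in every setting for both drugs, and in the cisplatin panel so are those of ABCC6, ABCF1 and ABCF2.

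TAP1, TAP2 and CFTR belong to the family under other symbols. CFTR, the chloride channel of epithelia, had 0 counts in every library. TAP1 and TAP2 together pump peptides into the endoplasmic reticulum for display on MHC class I, and with cisplatin TAP1 rose while TAP2 fell. TAP1 had 23.2, 25.7 and 23.1 CPM with Pt-ttpy, 36.7, 48.3 and 33.2 with cisplatin and 20.4, 27.2 and 19.3 with DMSO. It changed by 0.11 with Pt-ttpy (adjusted p = 0.719) and rose by 0.82 with cisplatin (SE 0.17, adjusted p = 0.00792), while the difference between the drugs, -0.71, had an adjusted p of 0.115. Without DMSO 2 and cisplatin 2, TAP1 was called with Pt-ttpy as well, at 0.28 (adjusted p = 0.0328), and between the drugs, at -0.54 (0.00152). TAP2 had 72.8, 72.6 and 81.2 CPM with Pt-ttpy, 66.8, 59.8 and 67.5 with cisplatin and 97.7, 119.7 and 98.8 with DMSO. TAP2 fell by 0.48 with Pt-ttpy (adjusted p = 0.0216) and by 0.70 with cisplatin (adjusted p = 0.00264) on the log2 scale. The Pt-ttpy call of TAP2 was lost without any 1 Pt-ttpy library (0.0621 to 0.105), and 32.3% of its exon bases lie in another model on the same strand that the table also holds.

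Genes that work with the family were counted from lists written from general knowledge. Of 22 partners of ABC proteins, all tested, Pt-ttpy raised 1, LMBRD1 (4.55%, background 12.0%), and lowered 0. At an unadjusted p under 0.05 there were 9 of 22, and DESeq2 called 5 of 21. The DESeq2 background with Pt-ttpy was 1344 higher and 1509 lower of 14950 genes. Cisplatin raised 2 and lowered 2 (18.2%, background 20.5%). B2M, the light chain of MHC class I, changed by -0.25 with Pt-ttpy (adjusted p = 0.0804) and fell by 0.40 with cisplatin (adjusted p = 0.00965). ETF1, the release factor that acts just before ABCE1, changed by -0.42 with Pt-ttpy (adjusted p = 0.0776) and fell by 0.58 with cisplatin (adjusted p = 0.0169). Without DMSO 2 and cisplatin 2 both were called with Pt-ttpy, B2M at -0.27 (adjusted p = 0.000394) and ETF1 at -0.49 (4.89e-07), and DESeq2 called both over all 9 libraries. ETF1 lost the cisplatin call without DMSO 1 (0.0506) or DMSO 3 (0.0518).

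Among LXR and sterol-responsive genes, 2 of 15 rose with Pt-ttpy and 0 fell (13.3% called, background 12.0%), and 4 rose and 3 fell with cisplatin (46.7%, background 20.5%). APOE, PLTP and NR1H3 were among those that rose with cisplatin, and SCD, the stearoyl-CoA desaturase, among those that fell. APOE, the lipoprotein that takes up exported cholesterol, had 163, 175 and 158 CPM with Pt-ttpy, 279, 463 and 252 with cisplatin and 97.9, 112 and 95.8 with DMSO. The groups did not overlap for either drug. APOE rose by 0.70 with Pt-ttpy (SE 0.19, adjusted p = 0.0333) and by 1.70 with cisplatin (SE 0.19, adjusted p = 0.000298). Pt-ttpy minus cisplatin was -1.0 on the log2 scale (adjusted p = 0.0402), a call lost without DMSO 1, DMSO 3, cisplatin 1 or any 1 Pt-ttpy library (0.0588 to 0.228). The Pt-ttpy call of APOE was lost without any 1 DMSO or any 1 Pt-ttpy library (0.0554 to 0.118). PLTP, the phospholipid transfer protein, rose by 0.47 with Pt-ttpy (adjusted p = 0.0353) and 0.98 with cisplatin (adjusted p = 0.000754), and lost the Pt-ttpy call without DMSO 1, DMSO 3 or any 1 Pt-ttpy library (0.092 to 0.126). NR1H3, which encodes LXR alpha, had 13, 10.6 and 8.77 CPM with Pt-ttpy, 13.4, 21 and 12.9 with cisplatin and 5.54, 7.76 and 5.84 with DMSO. Its change was 0.76 with Pt-ttpy (adjusted p = 0.0542) and 1.30 with cisplatin (adjusted p = 0.00448), and was called with Pt-ttpy, at 0.93 (0.000478), without DMSO 2 and cisplatin 2. SCD changed by -0.12 with Pt-ttpy (adjusted p = 0.365) and fell by 0.34 with cisplatin (adjusted p = 0.02), a call lost without cisplatin 1 (0.0565).

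Of 27 transcription factors known to act on ABC genes, 24 were tested. Pt-ttpy raised 1 and lowered 2 (12.5%, background 12.0%), and cisplatin raised 4 and lowered 2 (25%, background 20.5%). YBX1, a Y-box factor known to act on the ABCB1 promoter, had 843, 899.6 and 861 CPM with Pt-ttpy, 857, 703 and 839 with cisplatin and 1196, 1329 and 1264 with DMSO. YBX1 fell by 0.54 with Pt-ttpy (adjusted p = 0.0101) and by 0.66 with cisplatin (adjusted p = 0.00167) on the log2 scale. Its Pt-ttpy call was lost without any 1 Pt-ttpy library (0.0519 to 0.0578). FOXO3 rose by 0.69 with Pt-ttpy (adjusted p = 0.0118, lost without Pt-ttpy 2 at 0.0665) and by 0.63 with cisplatin (adjusted p = 0.00853).

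Enzymes that make glutathione or conjugates, the cargo of the ABCC pumps, were called at 1 of 21 tested with Pt-ttpy (4.76%, background 12.0%), GSTA4, which rose. Cisplatin raised 3 and lowered 3 (28.6%, background 20.5%). GSTA4, a glutathione transferase for lipid aldehydes, had 34.4, 31.9 and 31.7 CPM with Pt-ttpy, 28.6, 35.8 and 29.7 with cisplatin and 23.1, 21.2 and 20.9 with DMSO. It rose by 0.59 with Pt-ttpy (adjusted p = 0.0154) and 0.53 with cisplatin (adjusted p = 0.0129), and lost the Pt-ttpy call without any 1 Pt-ttpy library (0.0591 to 0.0747). GGT1, which breaks down exported glutathione, rose by 0.76 with cisplatin (adjusted p = 0.0118), the sulfotransferase SULT1A1 by 2.56 (adjusted p = 0.00736), and glutathione reductase GSR fell by 0.40 (adjusted p = 0.0117). With Pt-ttpy, GGT1 changed by 0.24 (adjusted p = 0.371) and GSR by -0.25 (0.0951). Without DMSO 2 and cisplatin 2 both were called with Pt-ttpy, at 0.42 (adjusted p = 0.000659) and -0.18 (0.00732), and SULT1A1 was not (0.135). SULT1A1 had at most 0.724 CPM in a DMSO library and was highest in cisplatin 2 at 5.45 CPM. Its cisplatin change was 1.77 (adjusted p = 0.0182) without DMSO 2 and cisplatin 2.

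Other carriers and resistance genes showed 0 calls of 9 tested with Pt-ttpy (background 12.0%), with 1 at an unadjusted p under 0.05 and 1 called by DESeq2. The DESeq2 background there was 1344 higher and 1509 lower of 14950 genes. With cisplatin MVP rose and SLC22A5 fell (22.2%, background 20.5%). The SLC22A5 call was lost without DMSO 3, cisplatin 1 or cisplatin 3 (0.0507 to 0.0693). MVP, the major vault protein, had 11.2, 10.7 and 9.07 CPM with Pt-ttpy, 17.6, 29.6 and 18.3 with cisplatin and 6.36, 9.91 and 7.61 with DMSO. It changed by 0.37 with Pt-ttpy (adjusted p = 0.3) and rose by 1.46 with cisplatin (SE 0.23, adjusted p = 0.0024), and the difference between the drugs, -1.08, had an adjusted p of 0.0688. In the 7 libraries MVP passed the test with Pt-ttpy, at 0.56 (adjusted p = 0.00735), and between the drugs, at -0.80 (0.00208). ATP7B, a copper pump that also moves platinum drugs, had 35.7, 39.2 and 38.8 CPM with Pt-ttpy, 33.3, 52.4 and 37.6 with cisplatin and 28.3, 32 and 33.3 with DMSO. ATP7B changed by 0.28 with Pt-ttpy (adjusted p = 0.26) and 0.40 with cisplatin (adjusted p = 0.0923), and neither was called. The Pt-ttpy change of ATP7B was called without DMSO 2 and cisplatin 2, at 0.30 (adjusted p = 0.0165).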

How the data were processed

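The authors deposited 1 table of read counts per gene for 9 libraries. The submitters' processing notes name GRCh38, and the sources used here give no aligner, counter or strandedness. Symbols came from GENCODE 29 and gene tables. Counts were filtered (filterByExpr, minimum 10), scaled by TMM and fitted in edgeR 4.0.16 (R 4.3.3) by robust quasi-likelihood, with 1 mean per group and prior count 0.125. Calls are Benjamini-Hochberg adjusted p under 0.05 over 15558 genes, and intervals are 95%. On simulated counts for Pt-ttpy vs DMSO (15288 genes), 63 of 100 planted log2 changes of 1 and 93 of 100 of 2 were recovered. Of the 168 calls made there, 12 were false. Sparse genes received no planted change and the GC trend of DMSO 2 and cisplatin 2 was not simulated, so recovery there is not known. No libraries were duplicates. CPM used TMM library sizes, and exon lengths came from GENCODE 29. Named were all called members, the classic pumps and organelle transporters, and up to 4 genes per list by p. Values of 2 tested members and 1 listed gene are not reported here, though the counts include them. Members and lists were chosen with earlier results of these data known. Alternatives were other scalings and filters, DESeq2 1.42.0, a replicate block, left-out libraries and, added after seeing the data, summed overlapping models.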

Additional observations from a re-analysis of the deposited data

How the results depend on the processing

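The calls on Pt-ttpy vs DMSO numbered 7 over all 9 libraries, 15 in the 7 libraries without DMSO 2 and cisplatin 2, and 2 to 9 with 1 library left out. Those on cisplatin vs DMSO numbered 12, and 7 to 11 with 1 library left out. For Pt-ttpy vs cisplatin there were 0, and 1 with no filter, with the replicate block, in the 7 libraries and in DESeq2's Wald test, and 0 to 1 with 1 library left out. Calls over all genes varied with the library left out as well. With Pt-ttpy against DMSO they ran from 143 higher and 42 lower (without Pt-ttpy 2) to 1411 and 1593 (without cisplatin 2). With cisplatin against DMSO they ran from 1097 and 915 (without cisplatin 2) to 1701 and 1399 (without DMSO 2). Over the 9 other settings, 812 of 850 member values kept direction and side of the threshold, 11 lost the call and 27 gained it; with 1 library left out these were 797, 56 and 11 of 864. No called change reversed, while 25 and 40 uncalled values changed sign. With the replicate number as a block, 9 members were called for Pt-ttpy and 14 for cisplatin against DMSO, and 1 between the drugs. Over all 15558 genes the block called 1285 higher and 1254 lower with Pt-ttpy (870 and 1004 without it). With cisplatin these were 1915 and 1797 (1669 and 1521 without it), and between the drugs 24 and 116 (9 and 71). Calls over all genes thus rose as well. Libraries of the same number deviated together only weakly (r from -0.0388 to 0.221), and the numbers were not taken as pairs. The highest values were those of DMSO and cisplatin of the same number, at 0.0996, 0.221 and 0.0821. Libraries of different numbers and groups gave -0.145 to 0.0656. Whether DMSO and cisplatin libraries of a number share an effect was not tested. Upper-quartile scaling and library totals left 9 cisplatin calls, 6 higher and 3 lower, against 6 and 6. The balance shifted over all genes as well. Their cisplatin falls numbered 913 under upper-quartile scaling and 943 with library totals, against 1521. Their rises numbered 1940 and 1995, against 1669, and their median log2 change was 0.0938 and 0.102, against 0.0127. The causes of these differences were not tested. For ABCG2, ABCC2, ABCC11, ABCA10 and ABCA12, counts of at most 61 in a library limit what can be seen.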
